A study of Sus scrofa with 6 samples.

Results

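The 10 core autophagy genes ATG3, ATG5, ATG7, ATG12, ATG14, BECN1, MAP1LC3A, MAP1LC3B, SQSTM1 and WIPI2 were followed in single pig oocytes. They were chosen by name as genes at the centre of autophagosome formation. All 10 had a value, out of 19300 genes listed in at least 1 oocyte, and all 10 averaged at least 1 FPKM (sequenced fragments adjusted for transcript length and for the depth of the library) over the oocytes, as did 11495 genes. The oocytes came from pig ovaries, from follicles of 3 to 6 mm with at least 3 layers of cumulus cells, were at the germinal vesicle stage, and had not been cultured for maturation. Strain, age and genotype are not stated. Oocytes that kept the dye brilliant cresyl blue (BCB-positive, 3 oocytes) were compared with oocytes that turned it colourless (BCB-negative, 3 oocytes). Cumulus cells were removed with hyaluronidase and the zona pellucida with pronase from all of them, and each library was made from 1 oocyte.

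BCB is made colourless by glucose-6-phosphate dehydrogenase, an enzyme that is active in growing oocytes, so BCB-positive oocytes are generally taken as fully grown. Autophagy encloses cytoplasm in a double membrane, the autophagosome, which then fuses with the lysosome. A lipid kinase complex built on BECN1 and ATG14 marks the forming membrane with phosphatidylinositol 3-phosphate, WIPI2 binds that lipid, and a ubiquitin-like machinery (ATG7, ATG3 and the ATG12-ATG5 conjugate) attaches LC3 to the membrane. In the mouse, autophagy in the fertilised egg depends on maternal Atg5 and is needed for preimplantation development.

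No animal or culture is named for any oocyte. Each class was therefore treated as 1 sample of 3 cells, and differences are described without a test. A difference is the BCB-positive minus the BCB-negative mean of log2(FPKM + 1), a scale that understates the difference of low genes, and the SD beside it is that between oocytes within a class, pooled over both classes. Values of oocytes 1, 2 and 3 of a class are given in that order. Expected counts summed to 7820374 to 9238987 in BCB-positive and 7122749 to 7668881 in BCB-negative oocytes. BCB-positive oocyte 3 stood apart, with a mean correlation across genes of 0.874 with the other libraries, against 0.905 to 0.915 for the rest, so values without it are given where they matter. Of 12 oocyte markers, 11 had a value and 10 averaged at least 1 FPKM. ZP3 was the most abundant, at 5602 to 14619 FPKM in BCB-positive and 8266 to 18993 FPKM in BCB-negative oocytes. ZP4 was next, at 4118 to 6518 and 4785 to 5895 FPKM in the same classes. The others ranged widely. ZP2, MOS, FIGLA, GDF9, BMP15 and DDX4 averaged 32.1 FPKM or more. DAZL (1.29 to 4.79 FPKM over all oocytes), NLRP5 (0 to 2.11) and NOBOX (0.11 to 0.83) were low, and OOSP2 was without a value. The sum of 12 granulosa and cumulus markers was 4.78 to 7.06 FPKM in BCB-positive and 0.81 to 7.40 FPKM in BCB-negative oocytes. Of these 12, 9 had a value. INHA was at 0.26 to 1.54 FPKM in BCB-positive and 0 to 0.96 FPKM in BCB-negative oocytes, CYP19A1 reached at most 0.18 FPKM, and FSHR and FOXL2 were without a value. These 4 and PTPRC below are named as defining markers, chosen after the values were seen. The most abundant were GREM1, at 1.47 to 3.42 and 0 to 5.94 FPKM in BCB-positive and BCB-negative oocytes, and HSD17B1, at 1.64 to 2.25 and 0.15 to 1.31 FPKM. Leukocyte markers summed to 3.28 to 6.54 FPKM in BCB-positive and 1.77 to 4.27 FPKM in BCB-negative oocytes, led by CD3E at 2.37 to 4.60 and 0.11 to 1.19 FPKM and CSF1R at 0.08 to 1.41 and 0.76 to 2.06 FPKM, with PTPRC at most 0.56 FPKM. Endothelial markers summed to 8.77 to 23.0 and 6.94 to 15.6 FPKM, mostly from TEK, at 7.80 to 20.4 and 6.90 to 13.8 FPKM, with PECAM1 at 0.68 to 3.76 and 0.04 to 2.21 FPKM. Theca and luteal markers (STAR at 0.40 to 1.79 and 0.05 to 0.37 FPKM, INSL3 at 0 and 0 to 3.15 FPKM) and fibroblast markers (DCN at 0 to 3.33 and 0.07 to 1.83 FPKM, COL3A1 at 0 and 0 to 0.47 FPKM) summed to at most 3.52 FPKM in any oocyte. Whether the low signal of other cell types had a part in the differences below was not tested.

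By level per transcript length, averaged over all 6 oocytes, the order was MAP1LC3B (184 FPKM), WIPI2 (128), ATG3 (79.7), MAP1LC3A (59.0), SQSTM1 (58.6), ATG5 (26.2), ATG7 (24.4), BECN1 (12.4), ATG12 (10.00) and ATG14 (7.67). Each gene overlapped its neighbour in this order when single oocytes were compared, so the order holds for means only. MAP1LC3B stood at the 93.9 percentile of mean FPKM among all genes compared and ATG14 at the 46.5 percentile. Together the 10 genes held 0.104%, 0.105% and 0.102% of expected counts in BCB-positive oocytes and 0.0940%, 0.0944% and 0.0995% in BCB-negative oocytes. The lowest BCB-positive share, in oocyte 3, had a Wilson 95% interval of 0.100% to 0.105%, and the highest BCB-negative share, in oocyte 3, one of 0.0972% to 0.102%, so these overlapped. Such intervals cover counting error only, since no molecular identifiers were used.

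**Figure D1:**
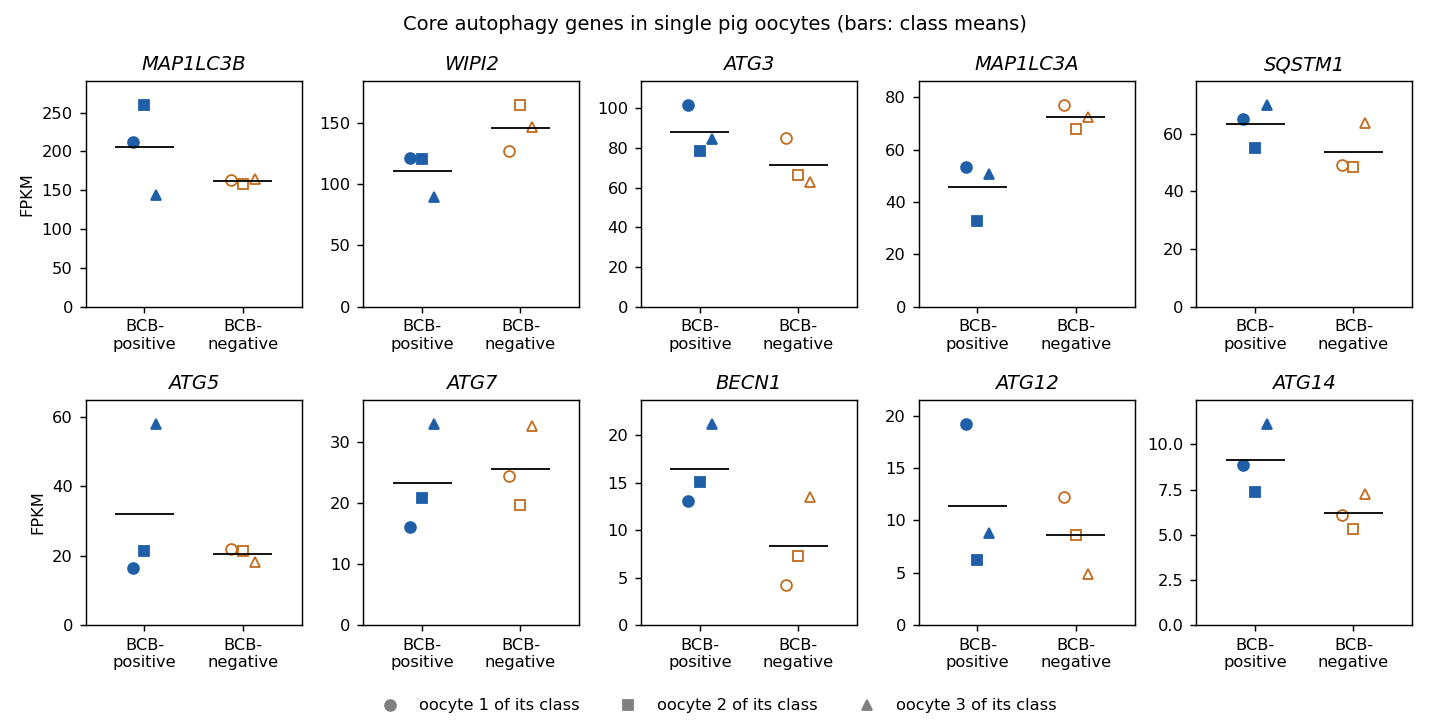
FPKM of each of the 10 genes in every oocyte (vertical axes, each from 0), with BCB-positive oocytes as filled points and BCB-negative oocytes as open points, and horizontal bars at the class means. MAP1LC3A and WIPI2 were lower in all 3 BCB-positive oocytes, ATG14 was higher in all 3, and the classes overlapped for the other genes.

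Most of the 10 genes overlapped between the classes. MAP1LC3A was the only one of the 10 that was without overlap and at least 1.5-fold apart, and it was lower in BCB-positive oocytes. By that rule 1 of 10 was lower and 0 of 10 were higher, against 2.66% lower and 5.75% higher among the 11495 genes, and 1 gene in 10 is too few to set apart from that background. At any size, ATG14 was higher without overlap and MAP1LC3A and WIPI2 were lower without overlap, against 7.44% of all genes higher and 4.03% lower. By size alone BECN1 passed 1.5-fold upward and MAP1LC3A downward, where 18.9% and 9.46% of all genes did. The class mean was higher in BCB-positive oocytes for 7 of the 10, and for 58% of all genes. It was lower for the other 3, and for 42% of all genes. The median difference of the 10 was 0.30, beside 0.11 for all genes and 0.12 for the 5456 genes within the same range of mean FPKM. Without BCB-positive oocyte 3 the medians were 0.25 for the 10 and 0.05 for all genes.

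**Figure D2:**
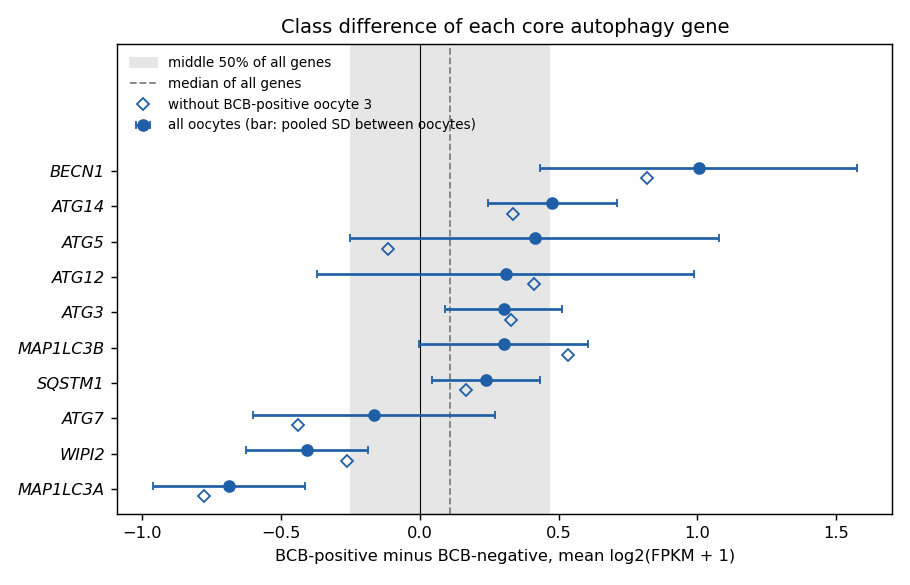
Difference between the classes for each gene (horizontal axis, BCB-positive minus BCB-negative mean log2(FPKM + 1)), with bars for the pooled SD between oocytes, open diamonds for the value without BCB-positive oocyte 3, a dashed line at the median of all genes and grey for their middle 50%. BECN1 lies highest at 1.00 and MAP1LC3A lowest at -0.69, and ATG5 changes sign to -0.11 without that oocyte.

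Within the lipid kinase complex, BECN1 and ATG14 both averaged more in BCB-positive oocytes. BECN1, the scaffold of the class III phosphatidylinositol 3-kinase complexes, measured 13.1, 15.1 and 21.2 FPKM in BCB-positive oocytes, against 4.23, 7.26 and 13.5 FPKM in BCB-negative oocytes. The classes met at a single pair of oocytes, with BCB-positive oocyte 1 at 13.11 FPKM just below BCB-negative oocyte 3 at 13.47 FPKM. Its means were 16.5 ± 4.21 and 8.32 ± 4.71 FPKM (SD, 3 oocytes each), a ratio of 1.98, and its difference was 1.00 (SD 0.57), the largest of the 10 genes. It rested on 161, 194 and 310 expected counts in BCB-positive and 49, 85 and 148 in BCB-negative oocytes. Summed by class these were 665 counts (exact Poisson 95% interval 615 to 718) and 282 counts (250.0 to 317), or 26.3 and 12.6 CPM (counts scaled to the class total). Poisson intervals, here and below, cover counting error only and leave out the spread between oocytes. Leaving out BCB-positive oocyte 3 gave a difference of 0.82, and leaving out BCB-negative oocyte 1, the lowest library for BECN1, gave 0.65. Leaving out either oocyte of the pair that met, BCB-positive 1 or BCB-negative 3, ended the overlap, at differences of 1.15 and 1.38. As this was the only pair that met, the lost overlap and the larger differences had to follow and are no separate result.

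ATG14, the subunit that directs the kinase complex to the site of autophagosome formation, measured 8.84, 7.36 and 11.2 FPKM in BCB-positive oocytes, against 6.10, 5.34 and 7.23 FPKM in BCB-negative oocytes. The classes did not overlap, by a narrow margin of 7.36 against 7.23 FPKM. The difference was 0.48 (SD 0.23), under the 1.5-fold limit of 0.58, and 0.34 without BCB-positive oocyte 3. It passed the limit, at 0.61, without BCB-positive oocyte 2. Expected counts summed to 1002 (interval 941 to 1066) in BCB-positive and 598 (interval 551 to 648) in BCB-negative oocytes, or 39.7 and 26.7 CPM.

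WIPI2, which binds the lipid made by the kinase and recruits the conjugation machinery, went the other way. WIPI2 measured 121, 120.4 and 89.3 FPKM in BCB-positive oocytes, against 127, 164 and 146 FPKM in BCB-negative oocytes. The classes did not overlap, with BCB-positive oocyte 1 at 121.36 FPKM and BCB-negative oocyte 1 at 127.29 FPKM as the nearest pair. The difference was -0.41 (SD 0.22), within 1.5-fold, and -0.26 without BCB-positive oocyte 3.

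The 4 genes of the conjugation machinery overlapped between the classes. ATG7, the E1-like enzyme that activates both ATG12 and LC3, measured 16.0, 20.8 and 33.0 FPKM in BCB-positive oocytes, against 24.4, 19.7 and 32.6 FPKM in BCB-negative oocytes, a difference of -0.16 (SD 0.44), or -0.44 with BCB-positive oocyte 3 left out. ATG3, the E2-like enzyme that transfers LC3 to lipid, measured 101.5, 78.4 and 84.3 FPKM in BCB-positive oocytes, against 85.0, 66.3 and 62.9 FPKM in BCB-negative oocytes, a difference of 0.30 (SD 0.21). For ATG3, BCB-positive oocytes 2 and 3 were below the highest BCB-negative oocyte, and BCB-positive oocyte 1 was above it. ATG12, the ubiquitin-like protein joined to ATG5, was low and variable, at 19.2, 6.23 and 8.77 FPKM in BCB-positive and 12.2, 8.61 and 4.91 FPKM in BCB-negative oocytes. Its difference of 0.31 had an SD of 0.68, rested on 23 to 100 counts an oocyte, and was -0.11 without BCB-positive oocyte 1.

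ATG5, the partner of ATG12 in the conjugate that promotes LC3 lipidation, was set apart by 1 library. It measured 16.5, 21.2 and 58.0 FPKM in BCB-positive oocytes, against 21.8, 21.3 and 18.1 FPKM in BCB-negative oocytes. BCB-positive oocyte 3 was well above the other 5 oocytes, which spanned 16.5 to 21.8 FPKM. The difference of 0.41 (SD 0.66) became -0.11 without that oocyte. ATG5 was also the only one of the 10 genes whose expected counts were not whole, although its file entries name 1 transcript, and whether reads were shared with another gene was not tested.

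LC3 is the ubiquitin-like protein that stays on the autophagosome membrane, and its 2 genes among the 10 differed in opposite directions by class mean. MAP1LC3A measured 53.3, 32.7 and 50.6 FPKM in BCB-positive oocytes, against 77.0, 67.8 and 72.5 FPKM in BCB-negative oocytes. Every BCB-positive oocyte was below every BCB-negative one, with 53.3 and 67.8 FPKM as the nearest values. The means were 45.5 ± 11.2 and 72.4 ± 4.58 FPKM (SD, 3 oocytes each), a ratio of 0.628, and the difference was -0.69 (SD 0.27). Expected counts summed to 1060 (interval 997 to 1126) in BCB-positive and 1481 (interval 1407 to 1558) in BCB-negative oocytes, or 42.0 and 66.1 CPM. The difference was -0.78 without BCB-positive oocyte 3 and -0.47, within 1.5-fold, without BCB-positive oocyte 2.

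MAP1LC3B measured 212, 260 and 144 FPKM in BCB-positive oocytes, against 163, 158 and 165 FPKM in BCB-negative oocytes. Oocytes 1 and 2 of the BCB-positive class exceeded the whole BCB-negative class and oocyte 3 was below it, so the classes overlapped at a difference of 0.30 (SD 0.30). The coefficient of variation was 28.2% among BCB-positive oocytes and 2.21% among BCB-negative oocytes, which lay close together. Without BCB-positive oocyte 3 the difference was 0.53, and without BCB-positive oocyte 2 it was 0.11.

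As a share of MAP1LC3A plus MAP1LC3B FPKM, a quantity that does not depend on scaling between libraries and was chosen after the values were seen, MAP1LC3A held 20.1%, 11.2% and 25.9% in BCB-positive oocytes. In BCB-negative oocytes it held 32.1%, 30.0% and 30.5%. The shares did not overlap and varied more among BCB-positive oocytes. MAP1LC3A alone was already without overlap, so its share is no separate result. How often the shares of other gene pairs separate was not computed. Among the relatives of LC3, GABARAPL2 was the most abundant, with 533, 324 and 240 FPKM in BCB-positive oocytes, against 388, 470 and 508 FPKM in BCB-negative oocytes, with overlap. GABARAPL2 held 52.3% to 66.5% of the family's FPKM in BCB-positive and 61.3% to 67.9% in BCB-negative oocytes. GABARAP, at 2.00 to 2.78 and 1.24 to 4.29 FPKM in the same classes, and GABARAPL1, at 0.43 to 0.68 and 0 to 1.51 FPKM, were near the floor of detection at 0 to 27 counts an oocyte.

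**Figure D3:**
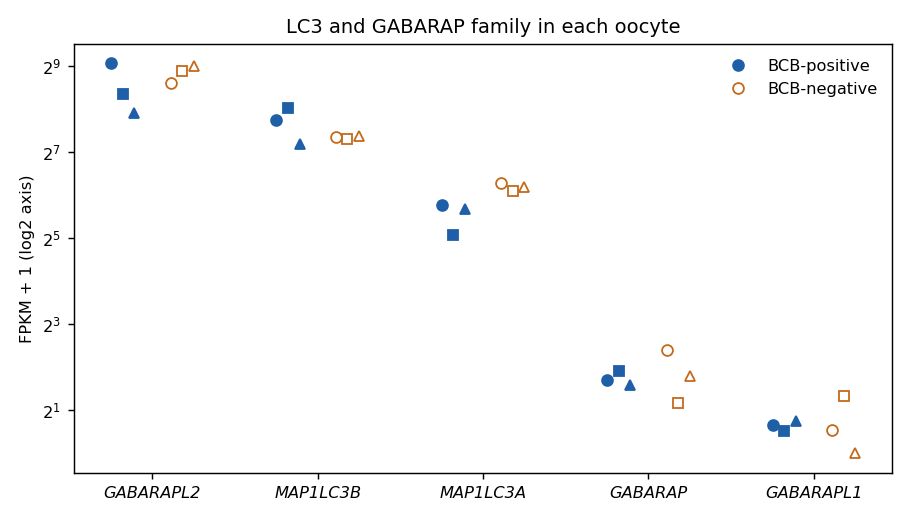
FPKM + 1 of 5 LC3 and GABARAP genes on a log2 axis, with BCB-positive oocytes as filled points left of BCB-negative oocytes as open points. GABARAPL2, MAP1LC3B and MAP1LC3A make up nearly all of the family's FPKM in every oocyte, and MAP1LC3A is the gene of the 5 whose classes do not overlap.

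SQSTM1 (p62), a receptor that carries ubiquitinated cargo to LC3 and is itself degraded by autophagy, measured 65.2, 55.2 and 69.9 FPKM in BCB-positive oocytes, against 49.2, 48.6 and 63.5 FPKM in BCB-negative oocytes. BCB-negative oocyte 3 lay above BCB-positive oocyte 2, so the classes overlapped at a difference of 0.24 (SD 0.19), which was 0.17 with BCB-positive oocyte 3 left out. The median pooled SD of the 10 genes was 0.29, beside 0.47 for the 5456 genes in the same range of mean FPKM, and 7 of the 10 lay below 0.47. ATG12, ATG5 and BECN1 lay above it, at 0.68, 0.66 and 0.57.

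BCB-positive oocyte 3 held the highest value of the 6 oocytes for 5 of the 10 genes (ATG5, ATG7, ATG14, BECN1 and SQSTM1) and the lowest for MAP1LC3B and WIPI2. The other 5 oocytes each held the highest value of at most 2 genes. The share of all genes that were highest in BCB-positive oocyte 3 was not computed, so this count has no background. That library also had 11751 genes at 1 FPKM or more, against 10729 to 11157 in the others.

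Transcript shares, estimated by the authors' software from reads that often match several transcripts, were examined for the 5 genes with 2 or more listed transcripts (ATG7, ATG12, BECN1, SQSTM1 and WIPI2). A share was counted where the classes did not overlap and their means were at least 20 percentage points apart. This held for 1 of the 5 genes, BECN1, and for 4.67% of 3215 genes with several transcripts, a mean of at least 1 FPKM and a value above 0 in every oocyte. BECN1 transcript XM_005668791.1, the longest of its 3 listed transcripts at 1733 bases, held 19.7%, 29.7% and 29.2% of the gene's FPKM in BCB-positive oocytes. In BCB-negative oocytes it held 0%, 0% and 4.16%. BCB-negative oocytes were thus assigned little or none of it, on few reads. If every read were assigned with certainty, a count of 0 would allow a share of up to 6.12% of BECN1 counts in BCB-negative oocyte 1. In BCB-negative oocyte 2 it would allow up to 3.53%. These limits leave out the error of assigning reads that match several transcripts, which was not tested. The class means were 26.2% ± 5.63 and 1.39% ± 2.40 (SD, 3 oocytes each), 24.8 points apart, and 26.3 points apart from expected counts. Its expected counts were 33.9, 61.0 and 96.1 in BCB-positive and 0, 0 and 6.67 in BCB-negative oocytes. The share was 23.4 points higher without BCB-positive oocyte 3.

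The other BECN1 transcripts overlapped between the classes. XM_005668793.1 held 26.3%, 26.2% and 49.6% in BCB-positive and 93.9%, 71.3% and 47.3% in BCB-negative oocytes, and NM_001044530.1 held 54.0%, 44.0% and 21.2% in BCB-positive and 6.15%, 28.7% and 48.6% in BCB-negative oocytes. By FPKM, XM_005668793.1 also overlapped, at 3.45, 3.96 and 10.5 in BCB-positive and 3.97, 5.18 and 6.36 in BCB-negative oocytes. NM_001044530.1 was at 4.49 to 7.08 FPKM in BCB-positive oocytes, against 0.26, 2.08 and 6.54 FPKM in BCB-negative oocytes, so BCB-negative oocytes 1 and 2 were low for this transcript as well.

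**Figure D4:**
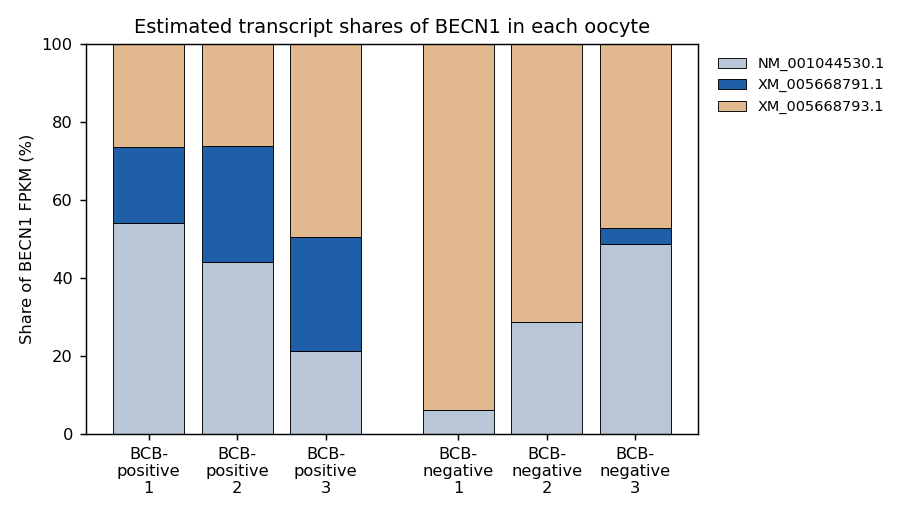
Estimated share of BECN1 FPKM held by each of its 3 listed transcripts in every oocyte (stacked bars, percent), BCB-positive oocytes on the left. The dark segment, XM_005668791.1, spans 19.7% to 29.7% in BCB-positive and 0% to 4.16% in BCB-negative oocytes.

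SQSTM1 transcript XM_005654936.1 held 48.5%, 39.6% and 33.1% in BCB-positive oocytes and 15.0%, 2.45% and 49.9% in BCB-negative oocytes, with overlap through BCB-negative oocyte 3. WIPI2 was divided between NM_001190295.1, at 40.1% to 81.6% in BCB-positive and 50.6% to 64.6% in BCB-negative oocytes, and XM_005661827.1, which held the rest. ATG7 came mainly from XM_005669781.1, at 69.8% to 79.7% in BCB-positive and 75.2% to 78.1% in BCB-negative oocytes. ATG12 came almost wholly from NM_001190282.1, at 98.4% or more in every oocyte.

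Around these 10 genes, 62 other autophagy genes in 8 lists by role were examined, of which 56 had a value and 43 averaged at least 1 FPKM. ATG101, ATG4B, MAP1LC3C and TFEB had a gene ID but no value, VMP1 and ZKSCAN3 matched no ID, and these 6 were not analysed here. Of the 43, 1 was at least 1.5-fold higher without overlap and 0 were lower, where the same rule took 5.75% and 2.66% of all genes. The median difference of the 43 was 0.06, and 0.02 without BCB-positive oocyte 3. The higher gene was VPS33A, a subunit of the complex that tethers autophagosomes to lysosomes, at 1.58, 1.79 and 3.18 FPKM in BCB-positive and 1.17, 0 and 0.16 FPKM in BCB-negative oocytes. VPS33A lay close to 0 in BCB-negative oocytes 2 and 3, and the difference of 1.19 (SD 0.50) rested on 23, 27 and 64 counts in BCB-positive and 16, 0 and 2 in BCB-negative oocytes.

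**Figure D5:**
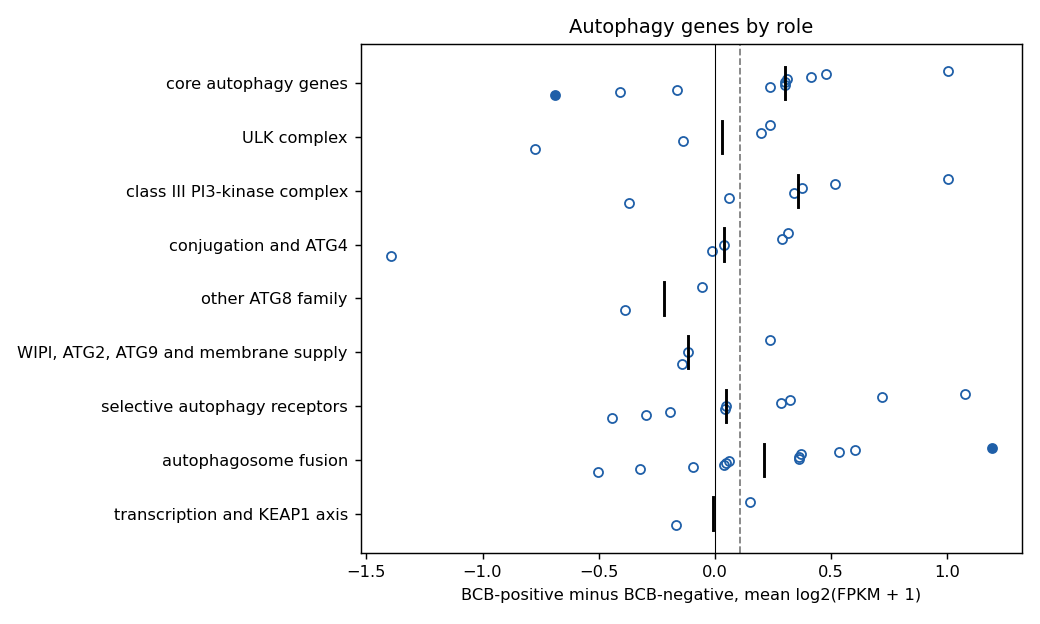
Difference between the classes of every autophagy gene with a mean of at least 1 FPKM (points, BCB-positive minus BCB-negative mean log2(FPKM + 1)), grouped by role, with black bars at list medians and a dashed line at the median of all genes. Filled points, MAP1LC3A and VPS33A, are at least 1.5-fold apart without overlap.

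In the 7 lists with no such gene the most abundant member is given. Of the ULK kinase complex, which starts autophagy, ULK1 was at 16.3 to 29.9 FPKM in BCB-positive and 20.8 to 26.4 FPKM in BCB-negative oocytes, a difference of -0.14 (SD 0.33). PIK3R4, the regulatory subunit that joins BECN1 in the lipid kinase complexes, measured 53.3, 46.4 and 35.0 FPKM in BCB-positive oocytes, against 55.8, 39.7 and 34.4 FPKM in BCB-negative oocytes, a difference of 0.06 (SD 0.33). The protease ATG4A, which processes LC3 and its relatives, measured 233, 260 and 645 FPKM in BCB-positive oocytes, against 427, 312 and 271 FPKM in BCB-negative oocytes. ATG4A thus stood above all of the 10 core genes by mean level, with a difference of 0.04 (SD 0.62), and of -0.42 without BCB-positive oocyte 3, its highest library. WDR45B, a relative of WIPI2, differed by -0.14 (SD 0.57), the cargo receptor TAX1BP1 by 0.05 (SD 0.21), GABARAPL2 by -0.39 (SD 0.43) and the transcription factor TFE3 by -0.17 (SD 0.30). With BCB-positive oocyte 3 left out, WDR45B turned to 0.17, and the values were 0.19 for TAX1BP1, -0.12 for GABARAPL2, -0.31 for TFE3, -0.06 for ULK1 and 0.22 for PIK3R4. The signs of ATG4A, WDR45B, TAX1BP1, TFE3, ULK1 and PIK3R4 each turned with at least 1 oocyte left out. For ATG4A this also held without BCB-negative oocyte 2 (-0.0038) or BCB-negative oocyte 3 (-0.10). The signs of TAX1BP1, PIK3R4 and ATG4A also turned after scaling by size factors, to -0.053, -0.041 and -0.064.

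By size alone, 5 of the 43 other autophagy genes were at least 1.5-fold higher, VPS33A among them, and 2 were lower. Of all genes 18.9% were higher and 9.46% lower by that measure. Those that overlapped between the classes, named after their values were seen, were ATG16L1, ULK2, PIK3C3, OPTN, CALCOCO2 and VPS16. ATG16L1, which WIPI2 recruits and which carries the ATG12-ATG5 conjugate to the membrane, measured 2.23, 1.59 and 8.49 FPKM in BCB-positive oocytes, against 12.4, 7.96 and 11.1 FPKM in BCB-negative oocytes. Only BCB-positive oocyte 3 reached the BCB-negative range. The difference was -1.40 (SD 0.74), and -1.97 without that oocyte. PIK3C3, the catalytic subunit of the lipid kinase, measured 2.86, 0.38 and 11.6 FPKM in BCB-positive oocytes, against 0.68, 2.07 and 0.63 FPKM in BCB-negative oocytes. Its difference of 1.00 (SD 1.19) was 0.18 without BCB-positive oocyte 3, or 1.78 if BCB-positive oocyte 2 was left out instead. The cargo receptors OPTN and CALCOCO2 had differences of 1.07 and 0.72, which were 0.33 and 0.33 once BCB-positive oocyte 3 was left out. OPTN differed by 0.70 without BCB-negative oocyte 2, and CALCOCO2 by 1.11 without BCB-positive oocyte 1. The ULK1 relative ULK2 differed by -0.77, by -1.41 without BCB-positive oocyte 1 and by -0.39 without BCB-positive oocyte 2. VPS16, a partner of VPS33A, differed by 0.60, by 0.11 without BCB-positive oocyte 3 and by 0.20 without BCB-negative oocyte 3.

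The genes whose profile over the 6 oocytes was nearest to that of BECN1, the member with the largest difference, were CCDC160, CLVS2 and SCN3B. Likeness was the root mean square distance between log2(FPKM + 1) values, each centred on the gene's own mean, over 11494 other genes. The distances were 0.20, 0.21 and 0.23, beside a median of 0.82, and with so many genes and 6 oocytes some near profiles arise in any search. CCDC160 measured 4.56, 7.43 and 7.77 FPKM in BCB-positive oocytes, against 2.00, 2.50 and 5.46 FPKM in BCB-negative oocytes. CLVS2 and SCN3B differed by 0.81 and 0.92. All 3 genes were picked for likeness to BECN1. Their class differences, and a highest BCB-negative value in oocyte 3, follow from that choice and are no separate result.

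Some values are uncertain because genes overlap and the strand of reads is not stated. The overlaps given here are those of build Sscrofa11.1. The submitters list build Sscrofa10.2, in which overlaps were not examined. ATG3 overlaps SLC35A5 (at most 3.30 FPKM), and ATG5 overlaps an unnamed gene without a value. ATG7 overlaps HRH1 (at most 0.66 FPKM), VGLL4 (17.3 to 26.5 FPKM) and an unnamed pseudogene without a value. ATG12 overlaps AP3S1 (at most 4.75 FPKM) and SQSTM1 overlaps MRNIP (83.8 to 129 FPKM). ATG14, BECN1, MAP1LC3A, MAP1LC3B and WIPI2 overlap no other gene in Sscrofa11.1.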

How the data were processed

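Each library was 1 oocyte, amplified from poly(A) RNA by PCR with a 24-nt poly(dT) primer, per the labels' protocols. BWA, RSEM and Cufflinks, and the genome build Sscrofa10.2, are listed in the submitters' processing notes with no roles or versions. The deposited expected counts are estimated reads per gene and transcript and need not be whole. The authors scaled FPKM values to feature length and library depth. A gene listed for at least 1 oocyte was set to 0 where another oocyte's file lacked it. Symbols came from a table of Sscrofa11.1, which matched 13936 of 19300 gene IDs and all 10 members. Since the builds differ, no positions are given.

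Differences, the 1.5-fold limit and transcript shares were computed with Python 3.11.15, numpy 2.4.6, pandas 2.3.3 and scipy 1.17.1, with a pseudocount of 1 FPKM, over genes averaging 1 FPKM or more. With no donor named, no test between classes was run. Members, lists and marker lists were chosen with earlier results of these data known. Named genes were the members, other autophagy genes at least 1.5-fold apart without overlap or, in lists without one, the most abundant, the 3 nearest profiles to the member with the largest difference, and the 2 marker genes of highest mean FPKM per cell type. Alternatives were a pseudocount of 0.1 FPKM, 2 scalings, CPM, the ratio of class means, other filters and leaving out each oocyte in turn.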

Additional observations from a re-analysis of the deposited data

How the results depend on the processing

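Members' differences were recomputed under 11 alternatives each, 110 values in all, and each stayed within 1 SD between oocytes of the reported value. With 3 oocytes a class, leaving out 1 cannot move a difference beyond that SD. For those values the limit therefore could not be passed and says nothing about stability. The sign turned in 5 of the 110: ATG5 at -0.11 without BCB-positive oocyte 3, ATG12 at -0.11 without BCB-positive oocyte 1, ATG7 at 0.06 without the same oocyte, and, with BCB-negative oocyte 3 left out, ATG12 at -0.0013 and ATG7 at 0.02. No sign turned under another pseudocount, scaling or unit. MAP1LC3A passed the rule under every alternative except leaving out BCB-positive oocyte 2. Leaving out each oocyte in turn gave 0 to 1 members higher, BECN1 or ATG14, and 0 to 1 lower. BECN1 was counted only where an oocyte of its single overlapping pair was left out, which had to end its overlap. The members' median ranged from 0.21 to 0.37 with an oocyte left out. After scaling by size factors the median was 0.20 for the members and 0.02 for all genes, and where every oocyte was brought to the same FPKM sum it was 0.40 and 0.19.

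Among the 43 other autophagy genes the median was -0.032 under size factors, 0.17 as the ratio of class means, and 0.015 to 0.18 with an oocyte left out. The count higher was 0 among genes averaging 5 FPKM or more, which leaves out VPS33A, and 1 to 4 with an oocyte left out. The count lower was 1 under size factors, ATG16L1, and 0 to 3 with an oocyte left out. Fewer oocytes overlap less readily. VPS33A differed by 2.77 with a pseudocount of 0.1 FPKM and by 1.69 from CPM. The BECN1 transcript share differed by 23.1 to 28.1 points with an oocyte left out. No paired analysis was possible because no result comes from a test and no label says that oocytes of the same number share an animal or a day. Depth limits ATG12 and VPS33A, at 0 to 100 counts an oocyte, and also PIK3C3, at 9 to 313. ATG16L1 had 30 and 22 counts in BCB-positive oocytes 1 and 2. BECN1 transcript XM_005668791.1 had at most 6.67 in BCB-negative oocytes.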
